A study of Mus musculus with 6 samples.

Results

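Peritoneal macrophages fall into a resident population, which lives in the cavity at rest, and populations that arise from monocytes. The genes described here are 34 genes of that division, of which 26 mark resident large peritoneal macrophages and 8 mark recruited or other macrophage subsets. They were found in the table by matching the symbols of a list of members. All 34 were found among 54648 gene symbols, and all 34 were among the 15608 genes that passed the filter on low counts. Cells of the peritoneal cavity were sequenced from 3 mice labelled FOXO3 KO and 3 labelled wild type (WT), described as littermates, of strain C57BL/6, male and female, 6 to 8 weeks old and fed standard chow. All 6 mice had received an intraperitoneal injection of 3% thioglycollate, and the cells were harvested 4 days later and pelleted. The knockout is carried in the germ line by all cells of the mouse, and the methods name no sorting of macrophages from the harvested cells, so that every library may hold other peritoneal cells. The sex of each mouse is not in the labels, and nothing in the labels but the replicate number says that a library is 1 mouse.

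Resident large peritoneal macrophages depend on the transcription factor GATA6, which is switched on in the cavity by retinoic acid and keeps up a set of surface, secreted and metabolic genes found in few other macrophages. When an irritant such as thioglycollate is injected, resident macrophages become hard to recover, while blood monocytes enter the cavity and mature into macrophages that at first lack this set. Macrophages that carry LYVE1 and FOLR2 form a further population, best known from connective tissue and the lining of vessels.

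Library totals were between 28083393 and 36424117 estimated counts, and expression is given as CPM, the counts scaled to a common library size after adjustment of that size by TMM, a method that assumes most genes to be equal between libraries. Values are given in the order WT 1, WT 2 and WT 3, then the libraries labelled FOXO3 KO 1, FOXO3 KO 2 and FOXO3 KO 3. Foxo3 stood at 117, 107 and 73.1 CPM in WT and at 4.71, 104 and 4.29 CPM in FOXO3 KO, so the library labelled FOXO3 KO 2 held as much Foxo3 RNA as the WT libraries. WT 3 stood apart from the other 5 libraries: its Pearson r with them, across genes, lay between 0.929 and 0.956, against 0.986 to 0.994 for every other pair. WT 3 also held both Xist at 871 CPM and Ddx3y at 23.7 CPM, where FOXO3 KO 3 held 1130 and 2.37 CPM and the remaining 4 libraries held Xist under 0.2 CPM and Ddx3y between 98.7 and 123 CPM. The other Y-linked genes Eif2s3y, Kdm5d and Uty lay at 15.5%, 24.3% and 22.9% of their mean in those 4 libraries in WT 3, and at 2.17% to 3.57% in FOXO3 KO 3. Whether WT 3 is the RNA of 1 mouse was not tested, and every value of WT 3 below carries that limit. Comparisons of the groups are given below with all libraries and without WT 3. For the 34 genes as a set, counts and the resident median are also given without the library labelled FOXO3 KO 2. The sum of 11 macrophage markers was high in all libraries, at 14189 to 19055 CPM, of which Lyz2 alone made 7746 to 11429 CPM.

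The RefSeq promoter table for GRCm38.p6 held a window for 23 of the 34 genes. Gata6, Adgre1, Icam2, Alox15, Prg4, Fn1, Thbs1, Itga6, Bhlhe40, Cd226 and Lyve1 had none. The 250 bases before each start were searched on both strands for GATAA or GATAG with an A or a T before it, since GATA6 binds sites of that kind. These letters were found in 2 of 17 resident genes with a window (11.8%), Serpinb2 and Saa3, and in 3 of 6 recruited or other genes (Dpp4, Itgax and Fcrls), against 8039 of 27025 genes in the whole table (29.7%). The windows of Serpinb2 and Saa3 are shown because they hold the match, shown in capitals (in Saa3 it lies on the opposite strand and reads reversed), and that of Timd4 is shown as a resident gene with a large excess in WT 3 and no match. Each is 250 bases, 5′ to 3′, on GRCm38.p6.

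Serpinb2 (chr1:107511260-107511509, plus strand): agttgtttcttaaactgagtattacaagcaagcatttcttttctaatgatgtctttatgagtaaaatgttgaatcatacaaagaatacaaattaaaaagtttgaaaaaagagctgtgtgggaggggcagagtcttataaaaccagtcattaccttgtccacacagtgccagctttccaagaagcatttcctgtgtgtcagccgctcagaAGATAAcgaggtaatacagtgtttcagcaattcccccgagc
Saa3 (chr7:46715677-46715926, minus strand): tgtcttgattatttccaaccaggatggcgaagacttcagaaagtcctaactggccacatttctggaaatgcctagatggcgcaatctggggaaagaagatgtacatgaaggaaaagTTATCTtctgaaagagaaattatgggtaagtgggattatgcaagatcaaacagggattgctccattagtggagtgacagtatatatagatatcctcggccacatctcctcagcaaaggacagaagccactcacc
Timd4 (chr11:46810549-46810798, plus strand): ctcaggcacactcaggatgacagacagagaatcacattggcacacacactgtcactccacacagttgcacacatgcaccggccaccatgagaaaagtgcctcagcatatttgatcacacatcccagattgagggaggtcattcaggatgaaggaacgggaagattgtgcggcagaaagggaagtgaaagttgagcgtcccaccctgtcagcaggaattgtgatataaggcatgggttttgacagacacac

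A match is a description of the letters only. Serpinb2 has a second start in the table, 87 bases upstream, whose window holds no match. That upstream start is the gene start in GENCODE M21 (chr1:107511423). The Serpinb2 match lies between the starts, so it is before the downstream start only and inside the gene as annotated from the upstream one.

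Of the transcription factors of resident macrophages, Gata6 was low in all libraries except WT 3 and, to a lesser degree, the library labelled FOXO3 KO 2. Gata6 measured 5.37, 3.49 and 41.2 CPM in WT and 5.70, 16.9 and 6.57 CPM in FOXO3 KO. WT 3 was thus 7.21-fold above the median of the other 5 libraries. Rarb, the retinoic acid receptor beta, measured 7.67, 7.76 and 11.1 CPM in WT and 11.2, 15.4 and 10.3 CPM in FOXO3 KO, and here WT 3 lay among the FOXO3 KO libraries. Bhlhe40, a basic helix-loop-helix repressor that supports proliferation of large peritoneal macrophages, ran the other way and was lowest in WT 3, with 261, 226 and 130 CPM in WT and 258, 283 and 201 CPM in FOXO3 KO.

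The surface genes held members with a large excess in WT 3 and others that were near equal in all libraries. Timd4, the TIM-4 receptor for phosphatidylserine on dying cells, measured 14.3, 12.0 and 318 CPM in WT and 15.5, 51.2 and 18.2 CPM in FOXO3 KO. Selp, the adhesion receptor P-selectin, measured 19.7, 11.3 and 395 CPM in WT and 11.4, 26.3 and 17.5 CPM in FOXO3 KO. Nt5e, the ecto-nucleotidase CD73 that makes adenosine, measured 6.09, 3.60 and 88.6 CPM in WT and 2.73, 7.70 and 6.30 CPM in FOXO3 KO. In each of these 3 genes WT 3 was more than 4-fold above every other library, and in Selp and Nt5e the other 5 libraries lay within a range that held both groups. Vsig4, a complement receptor, measured 74.2, 60.8 and 287 CPM in WT and 63.9, 99.6 and 48.3 CPM in FOXO3 KO. Icam2, an integrin ligand used to sort large peritoneal macrophages, measured 31.1, 33.0 and 216 CPM in WT and 49.2, 62.1 and 70.9 CPM in FOXO3 KO, so that all FOXO3 KO libraries lay above WT 1 and WT 2 and below WT 3. Ednrb, an endothelin receptor, measured 117, 97.3 and 520 CPM in WT and 177, 105 and 207 CPM in FOXO3 KO. Itga6, the integrin alpha 6 chain, was 3.66-fold above the median of the other libraries in WT 3, at 692 CPM against 172 to 290 CPM. Adgre1, which encodes the F4/80 antigen carried by most mouse macrophages, showed no such contrast, with 794, 802 and 920 CPM in WT and 742, 832 and 693 CPM in FOXO3 KO. The tetraspanin Cd9 was lowest in WT 3, at 313 CPM against 400 to 613 CPM elsewhere.

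Most secreted and matrix genes were also far higher in WT 3 than in the rest. Ltbp1, which binds latent TGF-beta in the matrix, measured 13.8, 6.60 and 515 CPM in WT and 3.76, 23.3 and 5.01 CPM in FOXO3 KO. Prg4, the lubricating proteoglycan lubricin, measured 118, 59.8 and 2862 CPM in WT and 81.4, 295 and 98.6 CPM in FOXO3 KO. Serpinb2, an inhibitor of plasminogen activators, measured 24.3, 19.6 and 418 CPM in WT and 18.0, 39.7 and 25.1 CPM in FOXO3 KO. WT 3 exceeded the highest of the other 5 libraries 22.1-fold in Ltbp1, 9.71-fold in Prg4 and 10.5-fold in Serpinb2, and in all 3 genes the library labelled FOXO3 KO 2 came next. Tgfb2, a ligand of the TGF-beta family that is produced by large peritoneal macrophages, measured 22.0, 11.8 and 189 CPM in WT and 10.9, 40.1 and 14.5 CPM in FOXO3 KO. F5, coagulation factor V, measured 114, 83.0 and 787 CPM in WT and 81.0, 116 and 185 CPM in FOXO3 KO. F10, coagulation factor X, did not share this pattern and was lowest in WT 3, with 256, 257 and 211 CPM in WT and 244, 324 and 256 CPM in FOXO3 KO. Saa3, an acute phase apolipoprotein, was high in WT 3 and in the library labelled FOXO3 KO 2, at 998 and 804 CPM, and lay between 361 and 462 CPM in the other 4.

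The matrix glycoproteins Fn1 and Thbs1 were abundant in every library, and WT 3 was the highest library, for Fn1 1.13-fold above the next. Fn1, fibronectin, measured 4022, 2712 and 8541 CPM in WT and 5272, 5300 and 7535 CPM in FOXO3 KO. Thbs1, thrombospondin 1, measured 396, 567 and 1481 CPM in WT and 984, 903 and 900 CPM in FOXO3 KO. In these genes, as in Icam2, all FOXO3 KO libraries lay above WT 1 and WT 2, an order that 14.2% of all genes shared.

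Among enzymes and intracellular proteins, Alox15 stood out. Alox15, the 12/15-lipoxygenase that oxygenates polyunsaturated fatty acids, measured 31.4, 18.9 and 1888 CPM in WT and 32.8, 61.2 and 72.6 CPM in FOXO3 KO, a 57.5-fold excess of WT 3 over the median of the others. Garnl3, named for a GTPase-activating domain, measured 1.58, 1.45 and 72.6 CPM in WT and 1.84, 5.47 and 1.92 CPM in FOXO3 KO. Aspa, the enzyme that splits N-acetylaspartate, measured 3.16, 3.88 and 41.7 CPM in WT and 2.37, 5.11 and 2.52 CPM in FOXO3 KO. In all 3 genes the 5 libraries other than WT 3 lay at a low level. Within that level, all FOXO3 KO libraries lay above WT 1 and WT 2 for Alox15 and Garnl3, but not for Aspa. That order held for 14.2% of all genes. For Alox15 the margin of FOXO3 KO 1 over WT 1 was small. Garnl3 had 52 counts in FOXO3 KO 1 and 57 in WT 1, so its order depends on the scaling to library size. Fabp7, a fatty acid binding protein, and Naip1, a sensor of bacterial secretion systems, were also highest in WT 3, at 37.3 and 58.4 CPM, with the library labelled FOXO3 KO 2 next at 33.2 and 47.0 CPM. Naip1 belongs to a family of near-identical copies, and its value depends on how the authors' counting shared their reads.

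**Figure D1:**
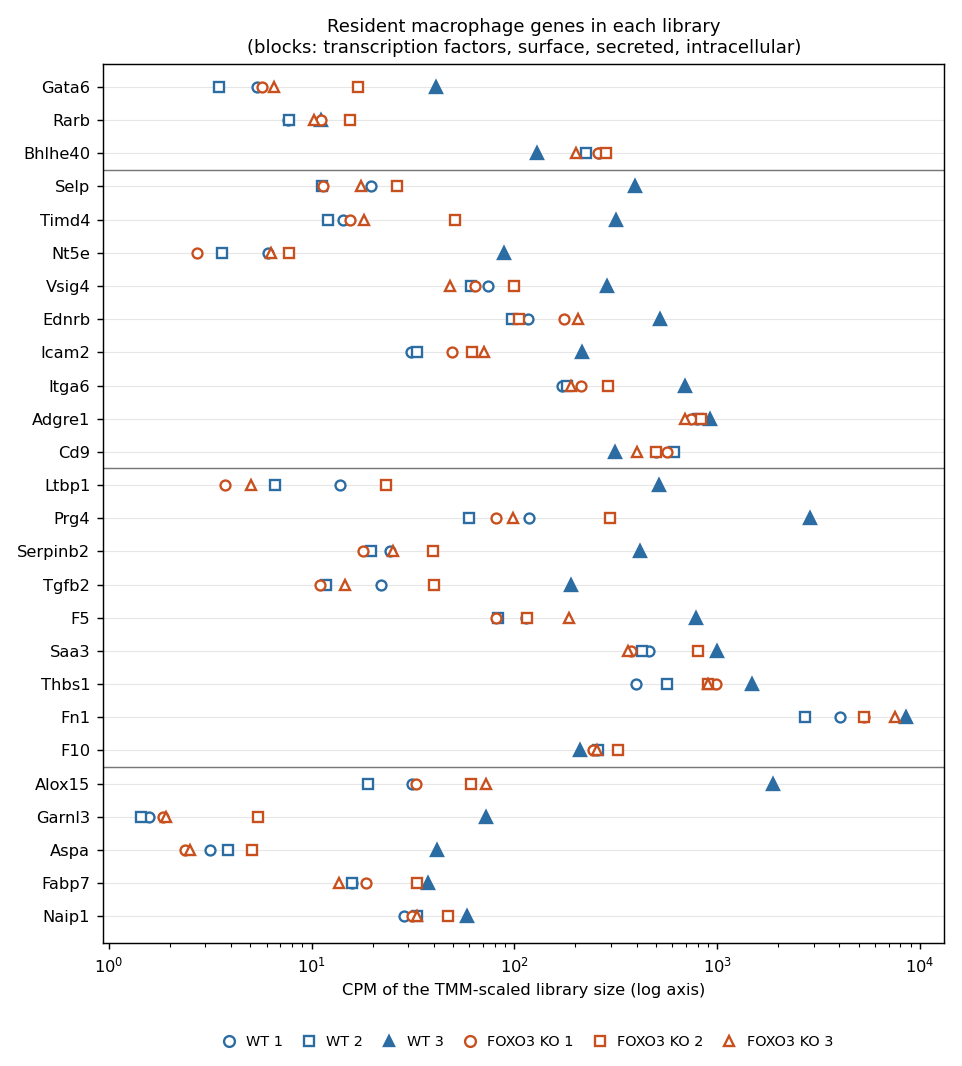
Expression of the 26 resident genes in each library, on a log axis of CPM, with 1 point for each library (blue for WT, orange for FOXO3 KO, filled triangle for WT 3), in blocks by role. WT 3 is the rightmost point for 22 of the 26 genes, and the library labelled FOXO3 KO 2 (orange square) is the highest of the others for 19.

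Counted over the whole set, WT 3 was the highest of the 6 libraries for 22 of 26 resident genes (84.6%), against 37.2% of all genes tested. It was more than 4-fold above every other library for 11 of 26 resident genes and 0 of 8 recruited or other genes, against 2.36% of all genes. These 11 were Timd4, Selp, Nt5e, Tgfb2, Ltbp1, Prg4, F5, Serpinb2, Alox15, Garnl3 and Aspa. They lie on 5 chromosomes in the GENCODE M21 annotation of GRCm38, among them Alox15 at chr11:70344152-70352031 and Ltbp1 at chr17:75005568-75392512, while Selp at chr1:164115264-164150026 and F5 at chr1:164151838-164220277 are neighbours. The median resident gene was 4.01-fold above its own median over the 6 libraries in WT 3 and 1.41-fold above it in the library labelled FOXO3 KO 2, and between 0.732-fold and 0.982-fold in the remaining 4. Leaving WT 3 aside, the library labelled FOXO3 KO 2 was the highest of 5 for 19 of 26 resident genes and 1 of 8 recruited or other genes, against 15.9% of all genes. In bulk RNA, a smaller share of resident macrophages and less of this RNA in each cell cannot be told apart.

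Levels of different genes can be compared only per kilobase of exon. On that scale, in WT 3, Fn1 was the most abundant resident gene at 1007 CPM per kb, followed by Alox15 at 784 and Prg4 at 669, and the least abundant was Rarb at 3.26. Over the other 5 libraries, the median of Alox15 was 13.6 CPM per kb and that of Prg4 was 23.0, while Fn1 kept the first place at 622, followed by Cd9 at 408 and Adgre1 at 245.

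The 8 genes of recruited or other subsets did not move as a block. In WT 3, 3 were more than 2-fold below every other library, against 5.05% of all genes, and 0 of the 26 resident genes were. These were Itgax, Folr2 and Mrc1. Itgax, the CD11c integrin chain of dendritic cells and of small peritoneal macrophages, measured 177, 128 and 46.3 CPM in WT and 152, 137 and 147 CPM in FOXO3 KO. Folr2, folate receptor beta, measured 120, 125 and 31.6 CPM in WT and 141, 99.8 and 153 CPM in FOXO3 KO. Mrc1, the mannose receptor CD206, measured 579, 573 and 193 CPM in WT and 486, 464 and 503 CPM in FOXO3 KO.

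Other genes of this group were higher in WT 3. Lyve1, a hyaluronan receptor that shares a macrophage population with Folr2, was opposite to Folr2 in WT 3, with 16.6, 10.2 and 31.9 CPM in WT and 17.9, 12.7 and 21.3 CPM in FOXO3 KO. Dpp4, the CD26 peptidase, measured 20.9, 14.7 and 76.3 CPM in WT and 16.6, 23.1 and 34.6 CPM in FOXO3 KO. Ly6c2, the Ly6C antigen of inflammatory monocytes, was low in all libraries, at 12.2 CPM in WT 3 and between 3.99 and 7.99 CPM elsewhere, and it has a close copy in Ly6c1. Fcrls, an Fc receptor-like scavenger receptor, was highest in FOXO3 KO 3 at 68.9 CPM, followed by WT 3 at 52.6 CPM, and Cd226, an adhesion receptor of small peritoneal macrophages, T cells and NK cells, lay between 1.63 and 3.56 CPM in all 6 libraries.

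**Figure D2:**
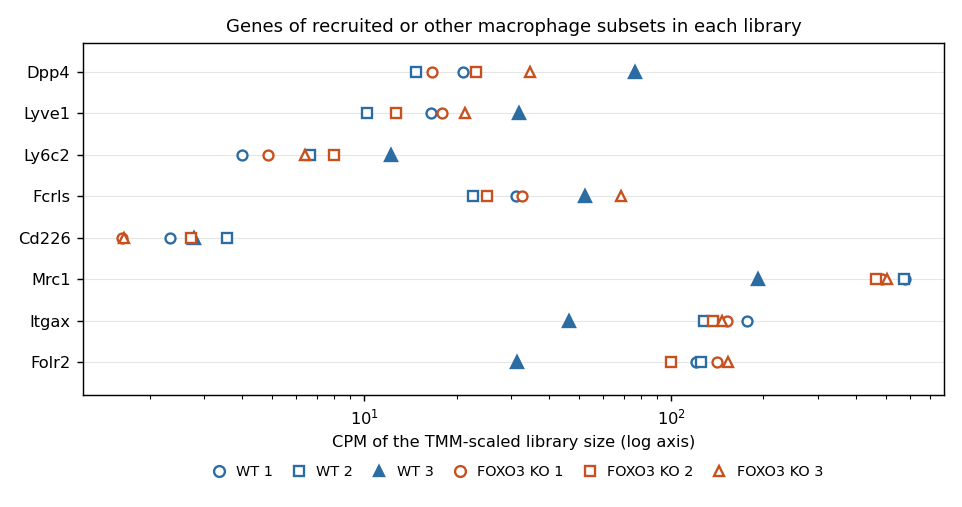
Expression of the 8 genes of recruited or other subsets in each library, on a log axis of CPM, with 1 point for each library and colours and shapes as for the resident genes. WT 3 is the highest library for Dpp4, Lyve1 and Ly6c2 and lies below every other library for Mrc1, Itgax and Folr2.

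The design sets FOXO3 KO against WT to ask which genes FOXO3 regulates in macrophages. With all 6 libraries, no member passed an FDR of 0.05 in the quasi-likelihood test of edgeR, adjusted over all genes by Benjamini-Hochberg, where 0% of all genes were called and the smallest FDR of a member was 0.839. At an unadjusted p under 0.05, that test gave 0 of 34 members higher and 0 lower in FOXO3 KO, against 4.04% and 1.65% of all genes. The groups did not overlap in 0 members in either direction, against 7.00% of all genes higher and 5.36% lower in FOXO3 KO. DESeq2 and limma-voom also called 0 members and gave 0 with an unadjusted p under 0.05. Over all genes, DESeq2 called 123 higher and 6 lower in FOXO3 KO, and limma-voom called 0 in either direction. At an unadjusted p under 0.05, DESeq2 gave 4.43% of all genes higher and 3.84% lower, and limma-voom 3.84% and 1.38%. DESeq2 gave 10 of the resident genes no p-value, adjusted or not, because a library stood out as a count outlier. The same held for 48 genes in all (0.308%). Its 0 thus covers only the members with a p-value, and Alox15, Ltbp1, Prg4, Selp and Timd4 were among those without one. The likelihood ratio test of edgeR, run on the same counts, called 0 members, where 102 of all genes were called higher and 7 lower. It gave 8 members with an unadjusted p under 0.05, all lower in FOXO3 KO, against 2.95% of all genes in that test.

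The fitted values for resident genes lay below zero with all libraries and above it without WT 3. The median log2 fold change of the 26 resident genes, FOXO3 KO against WT, was -0.70 with 6 positive and 20 negative, against a median of -0.01 over all genes. Without WT 3, it was 0.38 with 23 positive and 3 negative, against 0.00 over all genes. With the library labelled FOXO3 KO 2 also left out, it was 0.02 with 14 positive and 12 negative. Alox15 had a log2 fold change of -3.54 ± 1.75 (SE, edgeR, n = 3 and 3) and, without WT 3, of 1.15 ± 0.37, and Gata6 went from -0.78 ± 0.99 to 1.13 ± 0.52. For Gata6 the library labelled FOXO3 KO 2 was at 16.9 CPM, against 5.70 and 6.57 CPM in FOXO3 KO 1 and 3. Ltbp1, with the lowest value of -4.06 ± 1.82, came to 0.07 ± 0.80 without WT 3. Adgre1, near equal in all libraries, went from -0.15 ± 0.15 to -0.07 ± 0.11, while Fn1, with a small margin of WT 3 over the next library, went from 0.25 ± 0.49 to 0.85 ± 0.27. The recruited or other genes had a median of -0.03 with all libraries and 0.20 without WT 3. Xist split the libraries, with WT 3 and FOXO3 KO 3 on the high side, and with that split as a covariate the resident median over all 6 libraries was -0.18, with 9 positive and 17 negative.

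**Figure D3:**
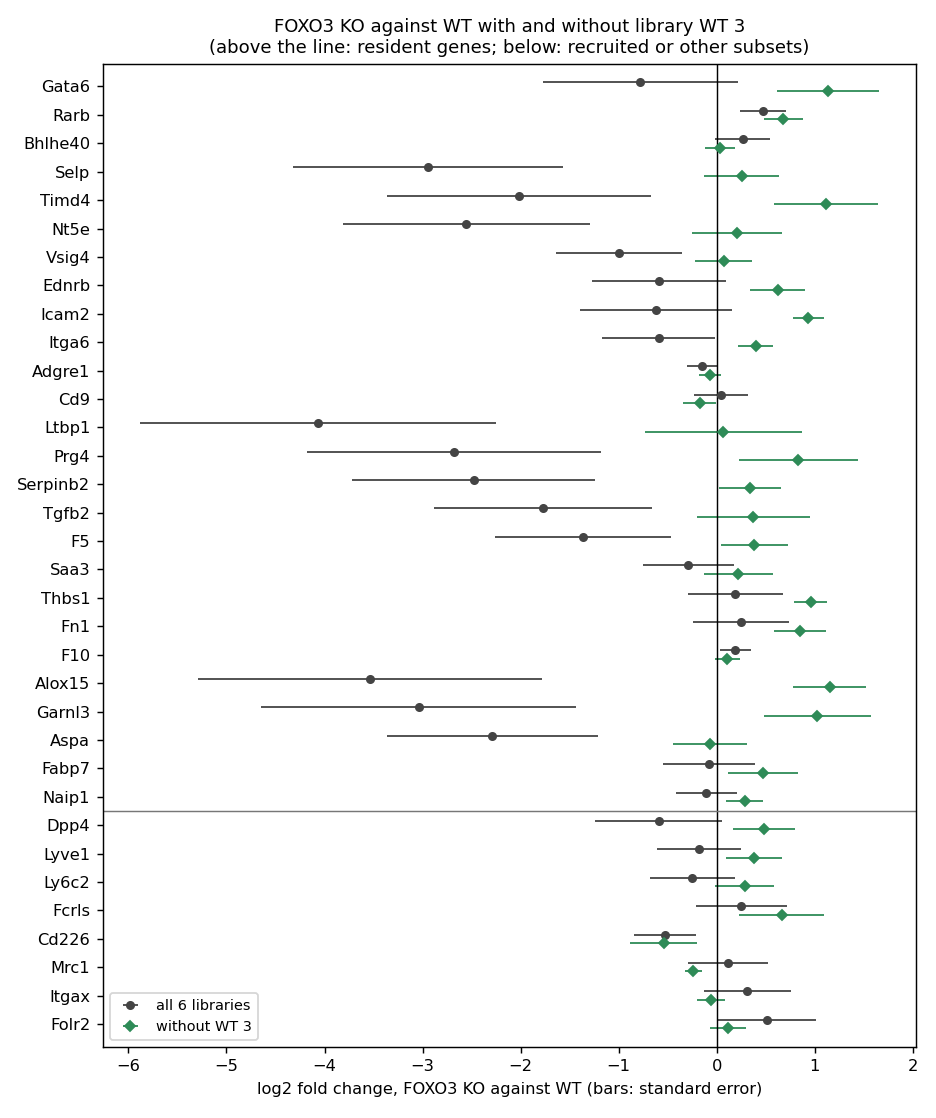
Log2 fold change of each of the 34 genes, FOXO3 KO against WT, from edgeR with all 6 libraries (circles) and without WT 3 (diamonds), with bars of 1 standard error. With all libraries 20 of the 26 resident genes above the line lie left of zero, and without WT 3 only Adgre1, Cd9 and Aspa do.

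Without WT 3, 0 members and 0% of all genes passed the FDR of 0.05 in edgeR's quasi-likelihood test, and the smallest FDR of a member was 0.440. At an unadjusted p under 0.05, 5 resident genes were higher in FOXO3 KO, against 6.15% of all genes, and 1 gene of the other group, Mrc1, was lower, against 2.25%. The 5 were Icam2, Thbs1, Rarb, Fn1 and Alox15. Icam2 had a log2 fold change of 0.93 ± 0.16 (SE, n = 2 and 3) with an FDR of 0.440 in edgeR, and Thbs1 one of 0.96 ± 0.17 with the same FDR. Rarb had 0.68 ± 0.20, Fn1 had 0.85 ± 0.27 and Mrc1 had -0.24 ± 0.09. All FOXO3 KO libraries lay above both WT libraries for 9 resident genes, against 14.2% of all genes, and below both for Mrc1, against 10.9%. With 2 WT libraries the spread within WT rests on 1 pair. Without WT 3, FOXO3 KO 3 was also the only library with high Xist, so the Xist split was not balanced between the groups. No fit without WT 3 held the Xist covariate. Among the libraries left, FOXO3 KO 3 was the highest for Icam2, Fn1 and Alox15, but not for Thbs1 or Rarb.

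Leaving out the library labelled FOXO3 KO 2, in which Foxo3 was at the WT level, 0 members passed the FDR in edgeR's quasi-likelihood test, where 0% of all genes were called, and the resident median became -1.04. Without that library and WT 3, a combination chosen after the data were seen, 4 genes were called (0.0256%), none of them members. They were Amd2, Cxcr2 and Ifitm1, which were higher, and Foxo3, which was lower in FOXO3 KO, and they are named here after their values were seen. The resident median was then 0.02, with 14 positive and 12 negative.

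Other genes of the same pathways were read from fixed lists, and 0 of them passed the FDR of 0.05 in edgeR's quasi-likelihood test, with all libraries or without WT 3. Counts at an unadjusted p under 0.05 stand against 4.04% of all genes higher and 1.65% lower in FOXO3 KO with all libraries, and 6.15% and 2.25% without WT 3. Of 11 further resident macrophage genes, 1 had an unadjusted p under 0.05, Cebpb, a transcription factor of macrophage differentiation, which measured 88.9, 93.9 and 76.5 CPM in WT and 117, 124 and 107 CPM in FOXO3 KO (log2 fold change 0.42 ± 0.12, edgeR FDR 0.714). Here the groups did not overlap, which held for 7.00% of all genes in that direction. Without WT 3 its log2 fold change was 0.35 ± 0.09, and 4 genes of the list had an unadjusted p under 0.05, all higher in FOXO3 KO. They were Cebpb and, named after their values were seen, Cav1, Apoc1 and Padi4, of which Apoc1 and Padi4 were on the lower side with all libraries. Cxcl13, a B cell attractant made by peritoneal macrophages, followed the resident pattern, with 8.00, 5.61 and 557 CPM in WT and 3.15, 27.2 and 6.78 CPM in FOXO3 KO. Klf4 and Tgm2 were lowest in WT 3, at 42.6 and 55.0 CPM against 71.5 to 107 and 119 to 217 CPM elsewhere. The groups did not overlap for Klf4 either, by a narrow margin of 94.3 CPM in FOXO3 KO over 92.5 CPM in WT, but they did for Tgm2. Apoc1 also followed the resident pattern, at 35.3 CPM in WT 3, 4.93 CPM in the library labelled FOXO3 KO 2 and between 0.415 and 1.38 CPM in the remaining 4.

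Of 15 genes of retinoid supply and response, 12 passed the filter, and those reported here with an unadjusted p under 0.05 were Stra6, on the higher side in FOXO3 KO, and Rxrb, on the lower side. Stra6, the membrane receptor that takes up retinol, measured 0.499, 0.494 and 0.252 CPM in WT and 1.52, 6.46 and 4.14 CPM in FOXO3 KO. All FOXO3 KO libraries were above all WT libraries, as in 7.00% of all genes. The log2 fold change was 3.28 ± 0.62 (edgeR, FDR 0.714), and 3.02 ± 0.66 without WT 3. The gene belongs to a panel that the study chose on these samples. The paper also reports a measurement of Stra6 by qPCR in FOXO3-deficient macrophages, and altered levels in human bowel disease and colon cancer data. Rxrb, a retinoid X receptor, had a log2 fold change of -0.23 ± 0.09, and of -0.17 ± 0.08 without WT 3, where its unadjusted p in edgeR's quasi-likelihood test was 0.073. For Rxrb all FOXO3 KO libraries lay below all WT libraries, as in 5.36% of all genes. Aldh1a2, which makes retinoic acid, measured 13.5, 12.1 and 19.2 CPM in WT and 16.4, 26.9 and 20.6 CPM in FOXO3 KO, and again WT 3 lay within the FOXO3 KO range. Without WT 3, those reported here with an unadjusted p under 0.05 were Stra6, Aldh1a2 and, named after its values were seen, Rara. All were higher in FOXO3 KO, against 6.15% of all genes. Aldh1a2 then had a log2 fold change of 0.75 ± 0.21 and Rara of 0.28 ± 0.11. Stra6 and Aldh1a2 were both highest in the library labelled FOXO3 KO 2, in which Foxo3 was at the WT level. The FOXO3 KO libraries stood in the same order for the fibroblast markers given below, with sums of 93.5, 482 and 169 CPM. The part of such cells in the values of Stra6 and Aldh1a2 was not tested.

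Of 14 genes of small or monocyte-derived macrophages, 1 had an unadjusted p under 0.05, Cx3cr1, the fractalkine receptor, at 28.2, 29.5 and 11.7 CPM in WT and 45.6, 41.2 and 57.8 CPM in FOXO3 KO (log2 fold change 1.06 ± 0.36, edgeR FDR 0.788). Ccr2, the receptor by which monocytes leave the marrow, measured 482, 370 and 218 CPM in WT and 571, 484 and 812 CPM in FOXO3 KO, and WT 3 was the lowest library for both. Retnla, a gene of alternative activation, and Plac8 were highest in WT 3, at 233 and 230 CPM against ranges of 98.7 to 185 and 21.3 to 81.5 CPM. Of 8 further genes of LYVE1 and FOLR2 macrophages, 1 had an unadjusted p under 0.05, Cbr2, a carbonyl reductase, at 65.3, 66.3 and 26.2 CPM in WT and 140, 78.1 and 146 CPM in FOXO3 KO (log2 fold change 1.21 ± 0.42, edgeR FDR 0.794). The scavenger receptor Stab1, the bridging ligand Gas6 and the growth factor Igf1 were likewise lowest in WT 3, as Folr2 and Mrc1 were, whereas Pf4, chosen after its values were seen, was highest there, at 219 CPM against 80.8 to 103 CPM. For Stab1 and Gas6, as for Cx3cr1, Ccr2 and Cbr2, all FOXO3 KO libraries lay above all WT libraries, but not for Igf1. That held for 7.00% of all genes. Without WT 3, edgeR's quasi-likelihood test gave 2 genes of the small or monocyte-derived list (Cx3cr1 and Cd209a, the latter named after its values were seen) and 3 of the other list (Cbr2, Gas6 and Stab1) an unadjusted p under 0.05, all higher in FOXO3 KO, against 6.15% of all genes. Cx3cr1 then had a log2 fold change of 0.75 ± 0.16 and Cbr2 of 0.90 ± 0.27.

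Markers of other cell types also differed between libraries, some lists being higher and some lower in WT 3. Outside WT 3 not all kept the order of the resident genes, as the library labelled FOXO3 KO 2 was lowest for mast cell markers. The 7 B cell markers summed to 3476 CPM in WT 3 and to 195 to 806 CPM elsewhere, with all 7 higher in WT 3 than in any other library. The 5 mast cell markers summed to 768 CPM in WT 3 and to 98.4 to 287 CPM elsewhere, and the 8 T and NK cell markers to 101 CPM against 25.1 to 44.5 CPM. Within that last list all 6 T cell genes were highest in WT 3, while the NK cell genes Ncr1 and Klrb1c were lowest there, at 1.76 and 3.38 CPM against 2.85 to 5.75 and 5.01 to 7.69 CPM. The 6 dendritic cell markers summed to 171 CPM in WT 3 against 46.3 to 99.3 CPM, but 119 CPM of that sum was Ccr7, and Xcr1 and Clec9a, which mark a dendritic cell subset, were lowest there. Neutrophil markers ran the other way, at 7.05 CPM in WT 3 and 27.3 to 40.2 CPM in WT 1, WT 2 and the library labelled FOXO3 KO 2. They summed to 290 and 211 CPM in the libraries labelled FOXO3 KO 1 and 3. Most of those sums was S100a9, at 164 and 117 CPM, and S100a8, at 83.2 and 59.8 CPM, and Cxcr2 was also highest there. Retnlg did not share this rise, at 17.0 to 21.7 CPM in all libraries but WT 3. Ltf was at most 1.52 CPM, and Ly6g, Camp and Ngp were at or near 0. Eosinophil markers were lowest in WT 3, at 12.7 CPM against 32.7 to 77.3 CPM, with the granule genes Prg2, Epx and Ear6 at or near 0.

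The library labelled FOXO3 KO 2, second for the resident genes, had the highest sums of fibroblast and mesothelial markers. Its 6 fibroblast markers summed to 482 CPM, against 40.9 to 169 CPM elsewhere, and its 9 mesothelial markers summed to 47.8 CPM, against 7.02 to 19.3 CPM. Msln was at or near 0 in all libraries. Endothelial markers summed to at most 10.8 CPM, with Cldn5 and Emcn at 0 in all libraries, and platelet markers to at most 6.37 CPM, with Gp9 at 0 in all of them. Macrophage markers summed lowest in WT 3, at 14189 CPM, of which Lyz2 made 7746 CPM. Cd68 was lowest there, at 525 CPM against 990 to 1472 CPM. Itgam, C1qa and C1qc were instead highest there, at 1981, 811 and 1009 CPM. The part of these other cells in the values of the resident genes was not tested.

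**Figure D4:**
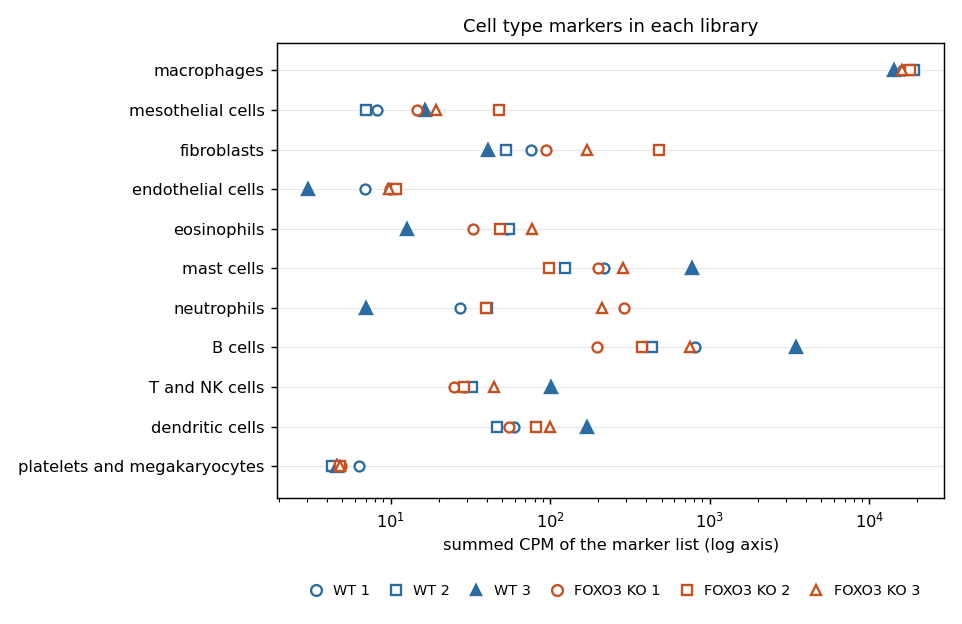
Summed CPM of each list of cell type markers in each library, on a log axis, with 1 point for each library and colours and shapes as for the resident genes. WT 3 (filled triangle) is highest for mast cell, B cell, T and NK cell and dendritic cell markers (of the last 2 sums, the NK cell genes Ncr1 and Klrb1c and the dendritic cell genes Xcr1 and Clec9a are lowest there) and lowest for neutrophil and eosinophil markers. The library labelled FOXO3 KO 2 (orange square) is highest for mesothelial and fibroblast markers, though the mesothelial markers Krt8 and Krt18 are highest in WT 3. For fibroblast markers all FOXO3 KO sums lie above all WT sums.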

How the data were processed

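RNA-seq reads of 76 bp from both ends had been assigned to genes by the authors, who deposited estimated counts without normalization. The submitters' processing notes name STAR 2.6.1d, kallisto 0.46.0, DESeq2 and the build mm10; the step that made the estimated counts, and the annotation, are not given in the sources used. Values were rounded, 81.4% being within 0.01 of a whole number. The filter filterByExpr, TMM factors and glmQLFTest of edgeR 4.0.16 (R 4.3.3) were applied to the counts, and p-values were adjusted by Benjamini-Hochberg over 15608 genes, with calls at 0.05. A standard error is the log2 fold change divided by the root of its F statistic. The script was tested on simulated data. Ratios of a gene to its own median over all libraries used log2(CPM + 0.5). Ratios of WT 3 to the median or highest of the other libraries were taken from CPM without that offset. Alternatives were edgeR's likelihood ratio test, DESeq2 1.42.0, limma-voom (limma 3.58.1), other scalings and filters, a replicate block, a covariate for libraries with Xist above 10 CPM, and each library left out. Gene lengths and places came from GENCODE M21. The members and lists were chosen with earlier results of these data known. All 34 members are named, with at most 4 genes of each pathway list by smallest p; genes outside this rule are marked in the text or serve as label checks and cell markers. P-values measure the spread between these libraries, which may be technical. Library totals of 28083393 to 36424117 limit the precision of genes near 1 CPM. A gene of the retinoid list is not reported here.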

Additional observations from a re-analysis of the deposited data

How the results depend on the processing

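No member passed the FDR of 0.05 in edgeR's quasi-likelihood test under any of the alternatives run, in the likelihood ratio test, in DESeq2 or in limma-voom. DESeq2 gave 10 members no p-value, so its result does not cover them. Over all genes the likelihood ratio test called 102 higher and 7 lower in FOXO3 KO, DESeq2 called 123 and 6, and the fit without FOXO3 KO 2 with the Xist covariate called 11 and 6. Members lower in FOXO3 KO at an unadjusted p under 0.05 numbered 8 in the likelihood ratio test (2.95% of all genes), 6 with no filter on low counts (2.13%), 4 without FOXO3 KO 2 with the Xist covariate (8.66%) and 0 to 8 as each library was left out (8 without WT 2, against 5.77%, and 5 without WT 1, against 1.51%). Members higher at that p numbered 0 to 5, the 5 without WT 3 (6.15%). Groups apart numbered 0 to 9 members higher (9 without WT 3, against 14.2%) and 0 to 5 lower (5 without FOXO3 KO 2, against 9.30%). Such counts are read from CPM, so the Xist covariate cannot change them. Without FOXO3 KO 2 they were 1 higher (11.0%) and 5 lower, with or without that covariate. Without FOXO3 KO 2 and WT 3, 3 genes were called higher and 1 lower, 7 members were higher (5.49%) and 2 lower (3.39%) at an unadjusted p under 0.05, and the groups were apart in 13 (19.8%) and 7 members (18.3%). As each library was left out, the resident median ranged from -1.14 to 0.38, that of the other members from -0.27 to 0.20 and Foxo3 from -4.46 to -0.87; Foxo3 was called without FOXO3 KO 2 with the Xist covariate, at -4.35.

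Fits that left out WT 3 turned the sign of 24 members, and those that left out FOXO3 KO 1, FOXO3 KO 2, FOXO3 KO 3, WT 1 or WT 2 turned 3, 1, 2, 1 and 2. The log2 fold changes over these fits were Gata6 from -1.44 to 1.13, Timd4 from -2.76 to 1.11, Icam2 from -1.05 to 0.93, Tgfb2 from -2.54 to 0.37, Alox15 from -4.12 to 1.15, Vsig4 from -1.35 to 0.073, Serpinb2 from -3.01 to 0.34, Ltbp1 from -5.34 to 0.065, Saa3 from -0.77 to 0.22, Prg4 from -3.49 to 0.83, Selp from -3.49 to 0.25, Garnl3 from -3.74 to 1.03, Fn1 from -0.053 to 0.85, F5 from -1.82 to 0.38. They were Thbs1 from -0.15 to 0.96, Itga6 from -0.93 to 0.40, Naip1 from -0.31 to 0.28, Nt5e from -3.08 to 0.21, Fabp7 from -0.52 to 0.47, Cd9 from -0.18 to 0.27, Ednrb from -0.96 to 0.62, Ly6c2 from -0.57 to 0.28, Itgax from -0.058 to 0.74, Dpp4 from -0.97 to 0.48, Lyve1 from -0.48 to 0.38, Mrc1 from -0.24 to 0.35 and Fcrls from -0.30 to 0.66 for the others. With the Xist covariate, Gata6 came to 0.14, Icam2 to 0.025 and Fabp7 to 0.011, and with the replicate block Icam2 came to 0.021. Libraries with the same number deviated from their group means with r of 0.34, -0.06 and 0.57, and WT 2 deviated most like FOXO3 KO 1 (0.61), so the numbers were not taken to pair them; the replicate block gave a resident median of -0.27 and changed no call. Other scalings and filters left every member's direction as it was. With 3 libraries a group, of which WT 3 differs in many genes and FOXO3 KO 2 in Foxo3, the direction of the resident genes is not settled here, and the causes of these differences between fits were not tested.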

Other observations

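Genes with at least 10 CPM in WT 3 were ranked by how far WT 3 exceeded the highest of the other libraries. All 26 resident genes reached that level in WT 3, whereas not all of the 15608 genes tested did, so the ranking covers fewer genes. Members of the resident set took 8 of the first 20 places. They took 8 of the first 50 and 9 of the first 100, so few followed further down. The genes outside the set near the top, chosen after their values were seen, were of several kinds. Wnt2, a secreted Wnt ligand, measured 0.914, 0.988 and 81.0 CPM in WT and 0.673, 4.49 and 0.989 CPM in FOXO3 KO. C4b, a complement component, measured 168, 95.3 and 3041 CPM in WT and 115, 383 and 203 CPM in FOXO3 KO. Both followed the order of the resident genes, with the library labelled FOXO3 KO 2 next after WT 3. Ccl24, an eosinophil attractant, was at 53.3 CPM in WT 3 and between 4.98 and 7.59 CPM elsewhere, while eosinophil markers were lowest in WT 3.

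B cell genes formed a further share of these places, among them immunoglobulin segments, the complement receptor Cr2, at 104 CPM in WT 3 against 1.59 to 13.5 CPM, the IgE receptor Fcer2a, at 135 CPM against 2.52 to 17.1 CPM, and the IgM receptor Fcmr, at 205 CPM against 6.52 to 30.1 CPM. In these 3 genes WT 1, and not the library labelled FOXO3 KO 2, came next after WT 3. No explanation of the profile of WT 3 was tested.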
